A study of Mus musculus with 6 samples.

Results

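The 10 receptor tyrosine kinase genes examined here were *Egfr*, *Erbb2*, *Erbb3*, *Erbb4*, *Fgfr1*, *Igf1r*, *Insr*, *Met*, *Axl*, and *Ddr1*, chosen by name from 56923 genes listed in the mRNA-Seq of mouse left ventricles (LVs). All 10 were found, and all 10 passed edgeR's filter on low counts, which left 17212 genes for testing. The samples were 3 *Lztr1* R409C/+ mice, heterozygous knock-in mice made with CRISPR/Cas9 and backcrossed to C57BL/6J, and 3 wild-type (WT) mice. All 6 mice were 12 weeks of age, their hearts were perfused with phosphate-buffered saline, and neither the labels nor the methods give a drug treatment for them. The sample labels call the groups mutant and wild-type and the tissue heart, and the study's methods name the LV. The methods state that phenotypes were assessed in males, and the labels do not give the sex of these mice. LZTR1 is an adaptor of a CUL3 ubiquitin ligase, and it acts on RAS proteins after translation. The knock-in changes a codon and not the amount of template, so the level of *Lztr1* does not check the genotype. It was between 22.2 and 27.9 counts per 1000000 (CPM) in all mice.

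Receptor tyrosine kinases are membrane proteins that bind a growth factor outside the cell, pair, and phosphorylate one another on tyrosine inside the cell. The phosphotyrosines recruit docking proteins such as GRB2, SHC1, and the IRS proteins, which pass the signal to RAS and to PI3K. Receptor amount at the cell surface is set by transcription and also by ubiquitination and endocytosis, which counts of RNA do not measure. EGFR and AXL are among the proteins that have been described as substrates of LZTR1. In the heart, neuregulin signaling through ERBB4 and its partner ERBB2 sustains cardiomyocytes, and the insulin and IGF-1 receptors act on growth and on glucose use.

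Total counts lay between 66130887 and 72641124 per mouse. Counts were scaled to CPM with TMM normalization, which corrects each library for its composition. At these depths, 3 counts corresponded to at most 0.0541 CPM, for counting error only. Mitochondrially encoded RNA took 13.8% of the counts in WT replicate 3 and 45.4% in R409C/+ replicate 1, and between 29.7% and 37.3% in the other 4 libraries. These libraries stood apart from the rest. The cardiomyocyte markers that define the tissue were present in every mouse, with a summed level of 40000 CPM or more.

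None of the 10 receptor genes passed the threshold between the genotypes. At a false discovery rate of 0.05, edgeR's quasi-likelihood test called 0 of the 10, where 0.0407% of all tested genes were called (0.0349% higher and 0.00581% lower), and DESeq2, edgeR's exact test, and limma-voom also called 0. At an unadjusted p under 0.05, 1 of the 10 was called, *Insr*, which was lower, where 2.86% of all tested genes were called lower, 5.77% higher, and 8.63% in either direction. Of the 10 genes, 4 had a positive and 6 a negative log2 fold change of R409C/+ over WT mice. Their median was -0.043, beside 0.012 over all genes tested. The groups did not overlap in CPM for 2 of the 10, *Insr* and *Erbb3*, both lower in every R409C/+ mouse. Over all genes tested, 7.23% were without overlap in this direction and 8.3% in the other. In the bulk LV, fewer cells of a type and less RNA per cell cannot be told apart.

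**Figure D1:**
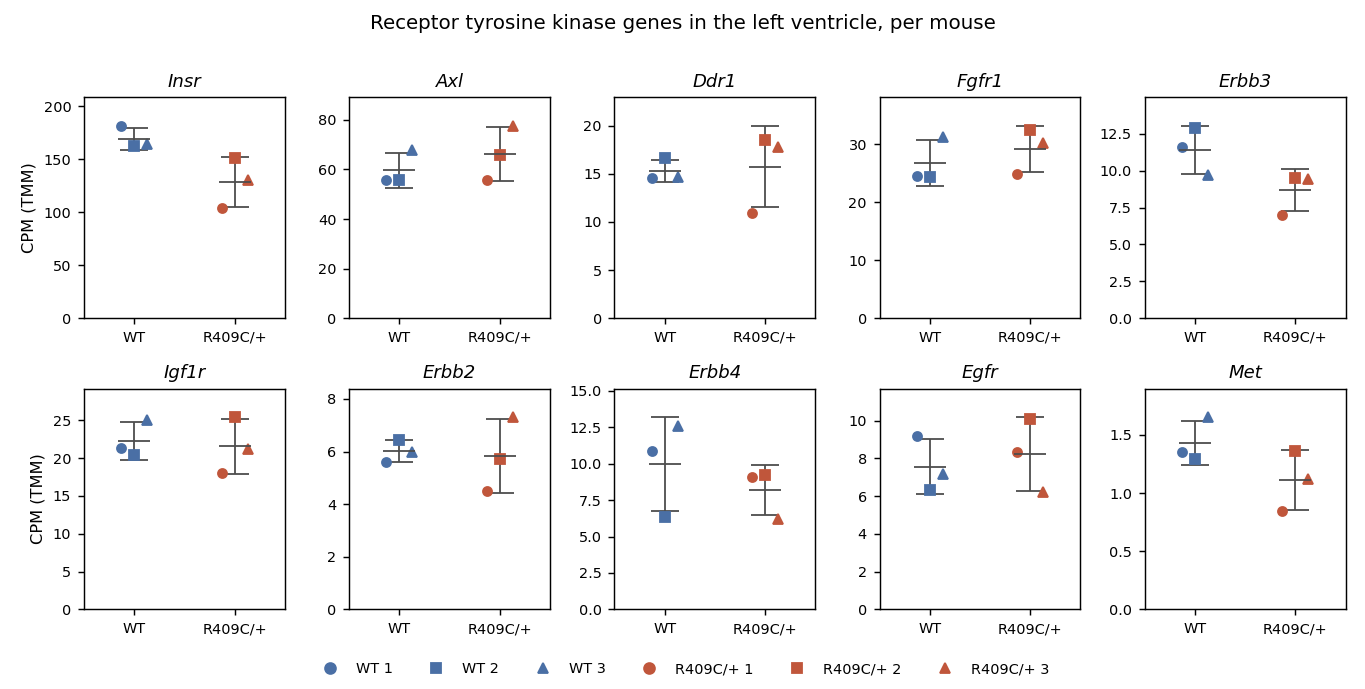
TMM-normalized CPM (y axis, from 0) of the 10 receptor genes in each mouse, with WT mice in blue, R409C/+ mice in red, a symbol for each replicate number, and bars for the mean and SD of 3 mice. The 3 R409C/+ mice sit below the 3 WT mice for *Insr* and *Erbb3*, and the genotypes overlap for the other 8 genes.

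*Insr* (ENSMUSG00000005534.11, chromosome 8 of GRCm39, 3172061 to 3329647, minus strand) encodes the insulin receptor. Replicates 1, 2, and 3 of the WT group held 181, 162, and 164 CPM, and those of the R409C/+ group held 104, 151, and 130 CPM. The lowest WT mouse lay above the highest R409C/+ mouse, and R409C/+ replicate 1 was the lowest of the 6. Group means were 169 ± 10.4 CPM (SD, n = 3) in WT and 128 ± 23.7 CPM (SD, n = 3) in R409C/+ mice. The log2 fold change was -0.40 (standard error 0.17, 95% interval -0.77 to -0.022), a fold of 0.76. Its unadjusted p in edgeR's quasi-likelihood (QL) test was 0.0395, and after Benjamini-Hochberg adjustment over all genes it was 0.556, so the difference failed the correction. Without R409C/+ replicate 1 the log2 fold change was -0.27 (unadjusted p = 0.105 by edgeR's QL test), and without WT replicate 3 and R409C/+ replicate 1 together it was -0.28 (unadjusted p = 0.0801 by edgeR's QL test). With any of the other mice left out in turn, the unadjusted p of *Insr* by the same edgeR test was 0.0518 to 0.131, except without R409C/+ replicate 2, where it was 0.0158. It was also above 0.05 with upper quartile scaling (0.0532) and with scaling by library size only (0.111) in place of TMM. With a replicate block in the same edgeR test it was 0.0633, at a log2 fold change of -0.41.

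The summed level of the cardiomyocyte markers also lay lower in the R409C/+ mice, and their part in the *Insr* difference was not tested. Their summed level was between 55700 and 59200 CPM in WT mice and was 40000, 50100, and 54800 CPM in R409C/+ replicates 1, 2, and 3. This sum is weighted to the most abundant markers. *Myh6* was at 6330 CPM in R409C/+ replicate 1 and between 14100 and 17300 CPM in WT mice. *Atp2a2* was at 8720 CPM in that mouse and between 13800 and 14800 CPM in WT mice. *Tnnt2*, *Tnni3*, *Myl2*, and *Myl3* lay within the WT range in that mouse. Of the 10 markers, 7 had a negative log2 fold change, 3 a positive one, and 0 passed the threshold, and none was at 0 in all mice. Per 1000 CPM of these markers in the same mouse, *Insr* was at 3.06, 2.85, and 2.95 CPM in WT and at 2.60, 3.02, and 2.38 CPM in R409C/+ replicates 1, 2, and 3. On this scale the genotypes overlapped through R409C/+ replicate 2. Of 166 tested genes in the pathway and marker lists, *Atp2a2*, which encodes the calcium pump of the sarcoplasmic reticulum, had the pattern most like *Insr* over the 6 mice (Pearson r of log2 CPM = 0.94, Spearman rho = 0.83). These 6 points share library, depth, and composition, and *Atp2a2*, itself one of the cardiomyocyte markers, was picked as the highest of the 166. Both genes were lower in every R409C/+ mouse, and with group means subtracted the Pearson r was 0.86.

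*Igf1r* (ENSMUSG00000005533.11, chromosome 7, 67601518 to 67883416, plus strand) encodes the receptor for IGF-1, the closest relative of the insulin receptor in this list. Its level was 21.4, 20.4, and 25.1 CPM in WT and 18.1, 25.4, and 21.2 CPM in R409C/+ replicates 1, 2, and 3. The genotypes overlapped fully, and the log2 fold change was -0.047 (standard error 0.17, 95% interval -0.43 to 0.33, adjusted p = 0.961, edgeR QL test). Its exons share 1247 bases with *Pgpep1l* on the opposite strand, but that gene held at most 18 counts in any mouse. Whether the counting used strand is not stated. Per 1000 CPM of the cardiomyocyte markers, *Igf1r* was at 0.363, 0.359, and 0.450 CPM in WT and at 0.453, 0.507, and 0.388 CPM in R409C/+ replicates 1, 2, and 3. On this scale it overlapped as well, and dividing by the lower marker sum of R409C/+ mice raises their values for any gene.

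The ratio of *Insr* to *Igf1r* within a mouse does not depend on how libraries are scaled. Per kb of exon, *Insr* was 12.1, 11.4, and 9.40 times as abundant as *Igf1r* in WT replicates 1, 2, and 3 and 8.24, 8.55, and 8.80 times as abundant in R409C/+ replicates 1, 2, and 3. All 3 R409C/+ ratios lay below all 3 WT ratios. The difference was -0.36 on the log2 scale, from 3.45 ± 0.19 (SD, n = 3) in WT to 3.09 ± 0.048 (SD, n = 3) in R409C/+ mice. A two-sided exact permutation test gave p = 0.1, the smallest that 3 mice against 3 allow, and 0.5 after adjustment over the 5 ratios examined. When single mice were omitted, the difference stayed between -0.46 and -0.28. It was -0.46 without WT replicate 3 and -0.33 without R409C/+ replicate 1, and the remaining ratios do not overlap when both are left out.

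The 250 bases of GRCm39 before the annotated start of the canonical transcript are shown for *Igf1r*, the denominator of this ratio. Capitals mark the GC box GGGCGG on either strand (CCGCCC on the reverse), the hexamer bound by SP1-type factors. The sequence is written 5′ to 3′ on the strand of the gene.
*Igf1r*, chr7:67601268-67601517, plus strand: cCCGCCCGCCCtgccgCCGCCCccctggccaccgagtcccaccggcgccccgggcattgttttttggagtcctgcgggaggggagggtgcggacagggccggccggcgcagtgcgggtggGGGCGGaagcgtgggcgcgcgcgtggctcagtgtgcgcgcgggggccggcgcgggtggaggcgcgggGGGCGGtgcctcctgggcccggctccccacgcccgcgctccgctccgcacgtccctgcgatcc
The *Igf1r* window held 5 GC boxes, a GC content of 80.8%, and 37 CpG dinucleotides. Of 21770 windows of the same length before protein-coding genes, 36.3% held a GC box. The same windows were searched on both strands for CCGGAAG, the core bound by ETS factors, for TGANTCA, the AP-1 element, and for GTAAACA, the element of FOXO factors. The *Igf1r* window held none of these, which were found in 6.89%, 6.17%, and 2.72% of all windows. A match or its absence describes the letters of this window, and binding was not measured.

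**Figure D2:**
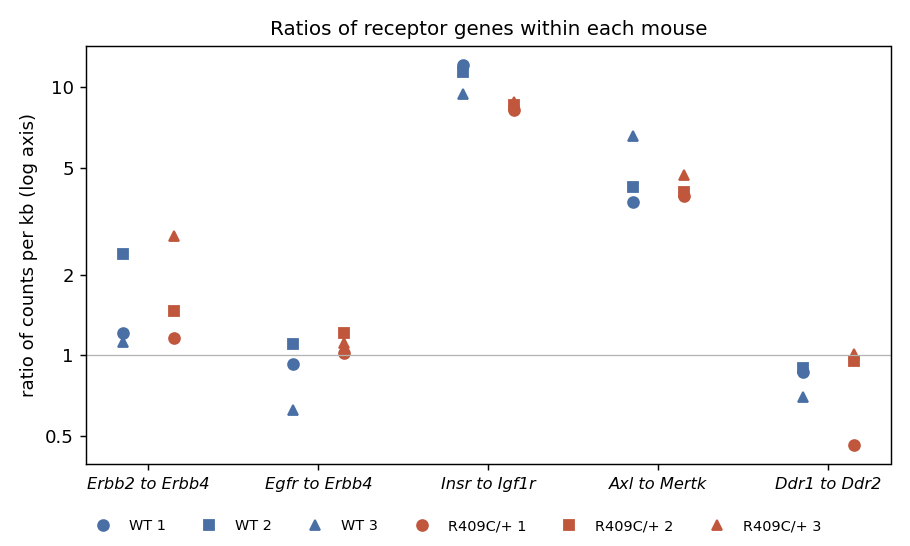
Ratio of counts per kb of exon (log axis) between receptor genes in the same mouse, with WT mice in blue, R409C/+ mice in red, and a symbol for each replicate number. The *Insr* to *Igf1r* ratio lies between 8.24 and 8.80 in R409C/+ mice, below the WT range of 9.40 to 12.1, and the genotypes overlap in the other 4 ratios.

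The ErbB family comprises EGFR, ERBB2, which has no known ligand of its own and serves as a partner, ERBB3, whose kinase is impaired, and ERBB4. *Erbb3* (ENSMUSG00000018166.9, chromosome 10, 128403392 to 128425811, minus strand) was measured at 11.6, 12.9, and 9.70 CPM in WT and at 7.02, 9.52, and 9.45 CPM in R409C/+ replicates 1, 2, and 3. The groups did not overlap, by a margin of WT replicate 3 over R409C/+ replicate 2 that was small beside the spread within either group. WT mice averaged 11.4 ± 1.59 CPM and R409C/+ mice 8.67 ± 1.43 CPM (SD, n = 3 each). The log2 fold change was -0.39 (standard error 0.20, 95% interval -0.82 to 0.034), a fold of 0.762, and edgeR's QL test gave 0.0680 for p before adjustment and 0.605 after it. It stayed negative in the 18 alternatives tried, between -0.50 and -0.27. It was -0.27 without R409C/+ replicate 1 and -0.37 without WT replicate 3 and R409C/+ replicate 1 together. Without WT replicate 3 alone it was -0.50, and its unadjusted p by edgeR's QL test was 0.0313 (adjusted p = 0.592).

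Per 1000 CPM of cardiomyocyte markers in the same mouse, *Erbb3* was at 0.196, 0.227, and 0.174 CPM in WT and at 0.176, 0.190, and 0.172 CPM in R409C/+ replicates 1, 2, and 3. On this scale the genotypes overlapped. Markers of Schwann cells, a cell type in which ERBB3 receives neuregulin, overlapped between the genotypes in their sum. Their summed level was between 39.3 and 46.8 CPM in WT and between 39.0 and 49.3 CPM in R409C/+ mice, with 4 of 8 tested markers with a positive log2 fold change, 4 with a negative one, and 0 past the threshold or an unadjusted p under 0.05. 1 of the 8, *Cnp*, did not overlap, at 4.4, 4.94, and 3.04 CPM in WT and 5.85, 5.01, and 5.95 CPM in R409C/+ replicates 1, 2, and 3. Over all genes tested, 8.3% were without overlap in this direction. The pattern most like *Erbb3* over the 6 mice, among the same 166 genes, was that of *Gab1*, a docking protein of receptor tyrosine kinases (Pearson r = 0.98, Spearman rho = 0.94). With group means subtracted, the Pearson r was 0.96. *Gab1* was measured at 71.2, 75.0, and 61.1 CPM in WT and at 47.7, 55.8, and 60.7 CPM in R409C/+ replicates 1, 2, and 3. Its log2 fold change was -0.34 (adjusted p = 0.591, edgeR QL test).

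*Erbb4* (ENSMUSG00000062209.16, chromosome 1, 68071345 to 69147619, minus strand), the neuregulin receptor of cardiomyocytes, varied most within WT mice relative to its mean. Its level was 10.9, 6.37, and 12.6 CPM in WT and 9.08, 9.22, and 6.18 CPM in R409C/+ replicates 1, 2, and 3. The genotypes overlapped, and the log2 fold change was -0.29 (95% interval -0.86 to 0.27, adjusted p = 0.799, edgeR QL test). It was -0.086 without WT replicate 3 and -0.53 without WT replicate 2, where its unadjusted p by edgeR's QL test was 0.0452 (adjusted p = 0.747). The pattern most like *Erbb4* over the 6 mice, again the highest of the 166 genes, was that of *Scn7a*, a Schwann cell marker (Pearson r = 0.90, Spearman rho = 0.83). With group means subtracted, the Pearson r was 0.89. *Erbb2* (ENSMUSG00000062312.6, chromosome 11, 98303203 to 98328542, plus strand), for the partner of ERBB4, was measured at 5.60, 6.43, and 6.0 CPM in WT and at 4.49, 5.73, and 7.30 CPM in R409C/+ replicates 1, 2, and 3. R409C/+ mice held both the lowest and the highest value. The log2 fold change of *Erbb2* was -0.039 (95% interval -0.53 to 0.45, adjusted p = 0.975, edgeR QL test), and its sign was not stable over the alternatives. Within a mouse, *Erbb2* per kb was between 1.12 and 2.38 times *Erbb4* in WT and between 1.16 and 2.78 times in R409C/+ mice (two-sided exact permutation test, p = 0.6).

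*Egfr* (ENSMUSG00000020122.17, chromosome 11, 16702198 to 16868158, plus strand) was measured at 9.17, 6.34, and 7.19 CPM in WT and at 8.36, 10.1, and 6.21 CPM in R409C/+ replicates 1, 2, and 3. WT mice averaged 7.57 ± 1.45 CPM and R409C/+ mice 8.23 ± 1.97 CPM (SD, n = 3 each), and the genotypes overlapped. The log2 fold change was 0.12 (95% interval -0.37 to 0.62, adjusted p = 0.918, edgeR QL test), and it was -0.061 without R409C/+ replicate 2. The interval leaves room for a fold well to either side of no change, so a modest difference in *Egfr* RNA was not detectable with these mice. *Egfr* per kb was 0.928, 1.10, and 0.628 times *Erbb4* in WT and 1.02, 1.21, and 1.11 times *Erbb4* in R409C/+ replicates 1, 2, and 3, so that the genotypes overlapped (two-sided exact permutation test, p = 0.2, and 0.5 after adjustment over the 5 ratios). Per kb of exon, the 4 ErbB genes summed to 4.52, 4.27, and 4.26 CPM in WT and to 3.38, 4.17, and 3.87 CPM in R409C/+ replicates 1, 2, and 3.

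*Axl* (ENSMUSG00000002602.17, chromosome 7, 25456535 to 25488329, minus strand) encodes a receptor for GAS6 of the TAM family, known from clearance of dying cells and from vascular cells and fibroblasts. Its level was 55.6, 55.7, and 67.9 CPM in WT and 55.7, 65.8, and 77.4 CPM in R409C/+ replicates 1, 2, and 3. The log2 fold change was 0.15 (95% interval -0.22 to 0.52, adjusted p = 0.847, edgeR QL test). R409C/+ replicate 1 fell on the level of WT replicates 1 and 2. With single mice left out it was between 0.023 (without R409C/+ replicate 3) and 0.25. Without WT replicate 3 and R409C/+ replicate 1 together, the log2 fold change of *Axl* was 0.36, and edgeR's QL test gave 0.0348 for p before adjustment and 0.543 after it. *Axl* per kb was between 3.72 and 6.58 times its relative *Mertk* in WT and between 3.92 and 4.71 times in R409C/+ mice (two-sided exact permutation test, p = 0.8).

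*Fgfr1* (ENSMUSG00000031565.19, chromosome 8, 26003670 to 26066824, plus strand), the most abundant FGF receptor gene here, was measured at 24.5, 24.4, and 31.3 CPM in WT and at 24.8, 32.5, and 30.1 CPM in R409C/+ replicates 1, 2, and 3. The genotypes overlapped, and the log2 fold change was 0.12 (95% interval -0.25 to 0.50, adjusted p = 0.879, edgeR QL test). With single mice left out it was between 0.032 (without R409C/+ replicate 2) and 0.25, and without WT replicate 3 and R409C/+ replicate 1 together it was 0.36 (adjusted p = 0.547, edgeR QL test). *Ddr1* (ENSMUSG00000003534.18, chromosome 17, 35992208 to 36015524, minus strand), a receptor for collagen, was measured at 14.6, 16.6, and 14.7 CPM in WT and at 10.9, 18.5, and 17.8 CPM in R409C/+ replicates 1, 2, and 3. R409C/+ replicate 1 was the lowest of the 6 mice and the other R409C/+ mice were the highest, so that the log2 fold change was 0.042 (95% interval -0.41 to 0.49, adjusted p = 0.972, edgeR QL test). In R409C/+ replicate 1, *Ddr1* per kb was 0.463 times the other collagen receptor gene, *Ddr2*, while it was between 0.699 and 1.01 times *Ddr2* in the other 5 mice.

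*Met* (ENSMUSG00000009376.16, chromosome 6, 17463749 to 17573979, plus strand), the receptor gene for hepatocyte growth factor, was the least abundant member, with between 47 and 156 counts per mouse. Its level was 1.35, 1.29, and 1.65 CPM in WT and 0.848, 1.36, and 1.12 CPM in R409C/+ replicates 1, 2, and 3. The genotypes overlapped through R409C/+ replicate 2. Its log2 fold change of -0.36 had the widest 95% interval of the 10 genes, -1.10 to 0.37 (adjusted p = 0.806, edgeR QL test). It was -0.22 without R409C/+ replicate 1, -0.25 without WT replicate 3, and -0.092 without both.

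**Figure D3:**
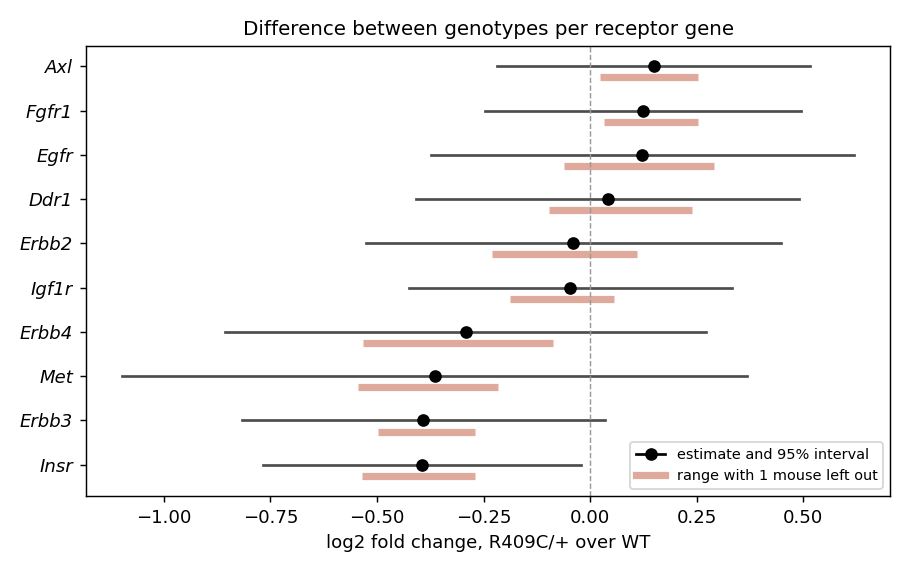
Log2 fold change of R409C/+ over WT mice for the 10 receptor genes (black points) with 95% intervals from edgeR's quasi-likelihood fit (black lines) and the range of the estimate over the 6 fits that each left out 1 mouse (red bars). The interval of *Insr*, -0.77 to -0.022, lies below 0, and the other 9 intervals include 0.

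Levels of different genes were compared per kb of exon, over all 6 mice. *Insr* stood first with 10.8 ± 2.0 CPM per kb (SD, n = 6), and *Axl* second with 6.87 ± 0.975 CPM per kb (SD, n = 6). *Ddr1* at 2.59, *Fgfr1* at 2.19, *Erbb3* at 1.59, *Igf1r* at 1.11, and *Erbb2* at 1.09 CPM per kb followed. *Erbb4* at 0.711 and *Egfr* at 0.684 CPM per kb were near the end, and *Met* was last at 0.164 CPM per kb. The ranges over the 6 mice did not overlap between *Axl* and *Ddr1* or between *Egfr* and *Met*, and they overlapped between the other neighbours in this order. *Insr* was above *Axl* in 6 of 6 mice, *Igf1r* was above *Erbb2* in 4 of 6, and *Erbb4* was above *Egfr* in 2 of 6, so that the last pairs could not be ordered. With the length of the canonical transcript in place of all exons, *Fgfr1* came before *Ddr1*, *Igf1r* before *Erbb3*, and *Egfr* before *Erbb4*. On that length *Insr* kept the highest mean over the 6 mice but was above *Axl* in 4 of 6, with *Axl* higher in R409C/+ replicates 1 (12.0 against 11.1 CPM per kb) and 3 (16.7 against 13.9 CPM per kb). Of the summed level of the 10 genes, *Insr* made up 44.7%, 42.1%, and 39.7% in WT and 34.7%, 37.4%, and 33.4% in R409C/+ replicates 1, 2, and 3.

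**Figure D4:**
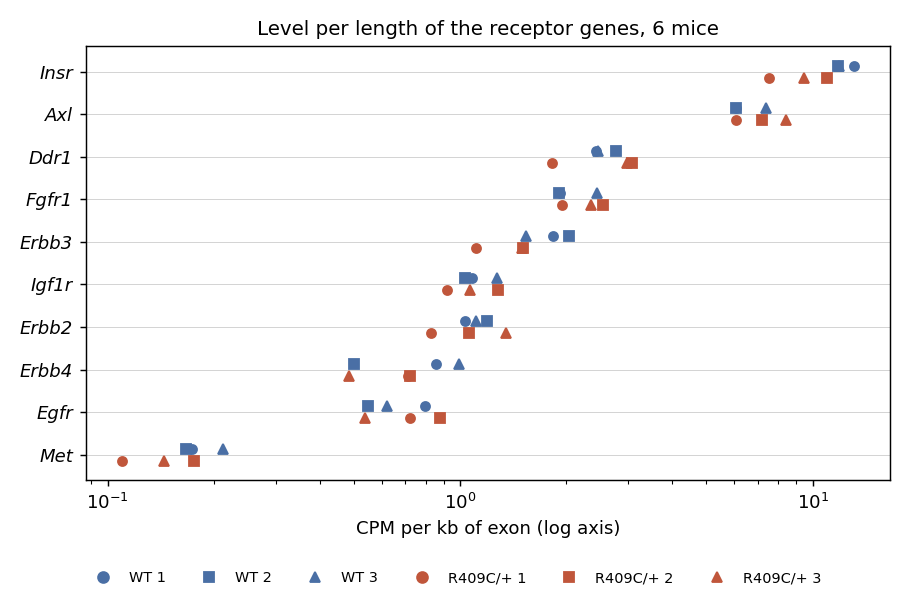
CPM per kb of exon (log axis) of the 10 receptor genes in each mouse, ordered by the mean over 6 mice, with WT mice in blue, R409C/+ mice in red, and a symbol for each replicate number. *Insr* and *Axl* lie above 6 CPM per kb in all mice, and *Met* lies between 0.110 and 0.213 CPM per kb.

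The ligand genes of these receptors were examined next. Of the genes for insulin and the IGFs, *Igf1* and *Igf2* were tested, and *Ins1* and *Ins2* were listed at 0 in all mice. *Igf1* (chromosome 10, 87693642 to 87772904), which encodes the ligand of IGF1R, was measured at 10.2, 12.4, and 12.4 CPM in WT and at 22.2, 16.9, and 20.1 CPM in R409C/+ replicates 1, 2, and 3. *Igf2* (chromosome 7, 142204503 to 142220694), a growth factor most active before birth, was measured at 17.8, 20.0, and 12.4 CPM in WT and at 34.7, 32.2, and 62.0 CPM in R409C/+ replicates 1, 2, and 3. For both genes the lowest R409C/+ mouse lay above the highest WT mouse, and R409C/+ replicate 3 was the highest for *Igf2*. The log2 fold changes were 0.76 (standard error 0.17) for *Igf1* and 1.36 (standard error 0.26) for *Igf2*, with adjusted p-values of 0.215 and 0.150 in edgeR's QL test, which did not pass the threshold. Both passed it with DESeq2, with an adjusted p of 0.0244 for *Igf1* and 0.000192 for *Igf2*, and with edgeR's exact test. Over all alternatives the adjusted p reached 0.976 for *Igf1* and 0.435 for *Igf2*. The exons of *Igf2* share 3599 bases with the read-through gene *Gm49394*, which is listed at 0 in all mice. On the opposite strand they share 347 bases with *Gm33148* and 254 bases with *Igf2os*.

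Levels of other cell type markers stood beside those of these ligand genes as follows. For scale, 0.0349% of all genes tested passed the threshold as higher. At an unadjusted p under 0.05 in edgeR's QL test, 5.77% of them were higher and 2.86% lower. Without overlap in CPM, 8.3% were higher and 7.23% lower. The summed level of 9 macrophage markers was between 191 and 232 CPM in WT and between 334 and 439 CPM in R409C/+ mice; 9 of 9 had a positive log2 fold change, 8 were higher at an unadjusted p under 0.05, 8 did not overlap, and 2 passed the threshold. The macrophage sums did not overlap between the genotypes. The 5 erythroid markers summed to between 579 and 1480 CPM in WT and to between 1040 and 2630 CPM in R409C/+ mice, where 5 of 5 had a positive log2 fold change, 3 were higher at an unadjusted p under 0.05, and 0 passed. Lymphocyte and neutrophil markers were scarce and summed to between 0.929 and 1.55 CPM in WT and to between 2.54 and 3.33 CPM in R409C/+ mice, without overlap; 5 of 6 tested had a positive log2 fold change, 2 were higher at an unadjusted p under 0.05, and 0 passed. Endothelial markers summed to between 463 and 655 CPM in WT and to between 511 and 843 CPM in R409C/+ mice, where 8 of 8 had a positive log2 fold change, 1 was higher at an unadjusted p under 0.05, and 0 passed. Mural markers summed to between 969 and 1240 CPM in WT and to between 936 and 1160 CPM in R409C/+ mice, where 6 of 9 had a negative log2 fold change, 2 were lower at an unadjusted p under 0.05, and 0 passed. Fibroblast markers summed to between 1310 and 1640 CPM in WT and to between 1150 and 1700 CPM in R409C/+ mice, where 5 of 9 had a positive and 4 a negative log2 fold change, 4 were higher and 0 lower at an unadjusted p under 0.05, and 0 passed the threshold. The 6 epicardial and adipocyte markers summed to between 4.89 and 5.93 CPM in WT and to between 5.22 and 8.76 CPM in R409C/+ mice, where 2 of 4 tested had a positive and 2 a negative log2 fold change, 2 were higher and 0 lower at an unadjusted p under 0.05, and 0 passed. Outside the macrophage list, markers higher without overlap were 4 of 6 tested for lymphocytes and neutrophils and 3 of 9 for fibroblasts. They were 1 of 8 for endothelial cells, 1 of 4 tested for epicardial cells and adipocytes, and 0 of 5 for erythroid cells. Of the mural markers, 2 of 9 were lower without overlap. The part of these cell types in the levels of *Igf1* and *Igf2* was not tested.

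Of the 11 ErbB ligand genes, 8 were tested. 3 had a positive and 5 a negative log2 fold change, with a median of -0.36, and 0 passed the threshold. At an unadjusted p under 0.05, 1 was higher and 1 lower, beside 5.77% and 2.86% of all genes tested. *Egf* (chromosome 3, 129470410 to 129549093), the founding ligand of EGFR, was measured at 6.10, 7.01, and 9.02 CPM in WT and at 3.72, 3.79, and 4.11 CPM in R409C/+ replicates 1, 2, and 3. Every R409C/+ mouse lay below every WT mouse, and the log2 fold change was -0.93 (SE of 0.22, adjusted p = 0.215, edgeR QL test). DESeq2 gave an adjusted p of 0.0192, and the range over all alternatives was 0.0192 to 0.464. The exons of *Egf* share 607 bases with *Gm42697* and 628 bases with *Gm42650*, both on the opposite strand. *Nrg1*, for the main cardiac neuregulin, was at 0.923, 1.62, and 1.08 CPM in WT and 2.15, 0.629, and 1.97 CPM in R409C/+ replicates 1, 2, and 3. R409C/+ mice held both the lowest and the highest of these values, and the log2 fold change was 0.39 (95% interval -0.58 to 1.37, adjusted p = 0.850, edgeR QL test). The annotation holds another gene of this name, whose 186 exon bases lie within those of the gene given here. *Nrg2*, which encodes another neuregulin, was scarce, at 0.726, 1.18, and 0.802 CPM in WT and 1.44, 1.51, and 2.04 CPM in R409C/+ replicates 1, 2, and 3 (log2 fold change 0.89, adjusted p = 0.523, edgeR QL test), and its exons share 1071 bases with *Psd2* on the opposite strand. The most abundant ErbB ligand gene per length was *Hbegf*, at 13.3 ± 2.78 CPM (SD, n = 3) in WT and 11.1 ± 0.355 CPM (SD, n = 3) in R409C/+ mice, with overlap, and *Btc*, for betacellulin, came next, at 2.90 ± 0.218 and 2.11 ± 0.861 CPM (SD, n = 3 each).

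Of the 18 FGF ligand genes, 8 were tested, 4 in each direction, and 0 passed the threshold. At an unadjusted p under 0.05, 1 was higher and 2 lower, beside 5.77% and 2.86% of all genes tested. *Fgf1*, the most abundant of the FGF ligand genes, was at 142 ± 23.1 CPM (SD, n = 3) in WT and 144 ± 6.70 CPM (SD, n = 3) in R409C/+ mice. *Fgf2* was measured at 25, 24.6, and 18.4 CPM in WT and at 18.2, 18, and 14.1 CPM in R409C/+ replicates 1, 2, and 3 (adjusted p = 0.547, edgeR QL test). The groups were separated by a narrow gap between WT replicate 3 and R409C/+ replicate 1, and *Fgf2* shares 3073 exon bases with *Nudt6* on the opposite strand. *Fgf6* counts were 65, 61, and 140 in WT mice and only 15, 39, and 9 in R409C/+ replicates 1, 2, and 3 (log2 fold change -1.85, adjusted p = 0.339, edgeR QL test). The log2 fold change of *Fgf6* was -2.546 without R409C/+ replicate 2 and -1.465 without R409C/+ replicate 3. *Fgf18* was at 1.36 ± 0.545 CPM (SD, n = 3) in WT and 2.70 ± 1.20 CPM (SD, n = 3) in R409C/+ mice, with overlap, and *Fgf16* at 7.05 ± 1.61 and 9.54 ± 0.322 CPM (SD, n = 3 each), without overlap. *Gas6*, the AXL ligand gene, was measured at 88.2, 78.9, and 82.9 CPM in WT and at 93.5, 94.3, and 125 CPM in R409C/+ replicates 1, 2, and 3. It did not overlap between the genotypes but did not pass the threshold (log2 fold change 0.32, adjusted p = 0.617, edgeR QL test). *Pros1*, the other ligand gene of the TAM receptors, was at 23.9 ± 4.70 and 22.2 ± 4.16 CPM (SD, n = 3 each), with overlap, and *Hgf*, the MET ligand gene, had an adjusted p of 0.995 from the same test.

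**Figure D5:**
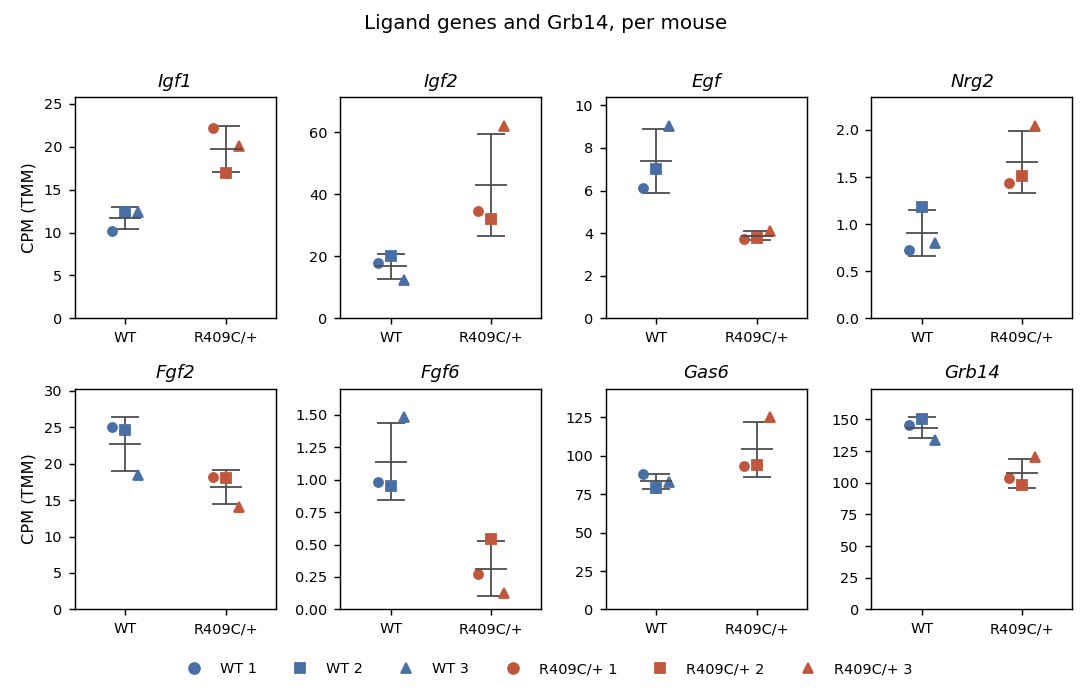
TMM-normalized CPM (y axis, from 0) of 7 ligand genes and *Grb14* in each mouse, with WT mice in blue, R409C/+ mice in red, a symbol for each replicate number, and bars for the mean and SD of 3 mice. The genotypes do not overlap in any of the 8 panels, which were chosen for this, and *Igf2* reaches 62.0 CPM in R409C/+ replicate 3.

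The list of 33 receptor regulators includes genes that shed, trap, degrade, or dephosphorylate these receptors or bind their ligands. Of these 33 genes, 28 were tested, 15 with a positive and 13 with a negative log2 fold change, and 0 passed the threshold. At an unadjusted p under 0.05, 4 were higher and 1 lower, beside 5.77% and 2.86% of all genes tested. Without overlap in CPM, 3 were higher and 3 lower, beside 8.3% and 7.23% of all genes tested. *Grb14*, an adaptor that binds the activated insulin receptor and inhibits its kinase, was measured at 146, 150, and 134 CPM in WT and at 104, 98.1, and 120 CPM in R409C/+ replicates 1, 2, and 3. It was lower in every R409C/+ mouse, as *Insr* was, and the log2 fold change was -0.41 (SE of 0.15, adjusted p = 0.495, edgeR QL test). The exons of *Grb14* share 588 bases with *Gm74641* on the opposite strand. The IGF binding protein genes *Igfbp5* and *Igfbp6* were at 75.7 ± 10.6 and 4.80 ± 0.911 CPM (SD, n = 3) in WT and at 108 ± 20.0 and 8.53 ± 1.94 CPM (SD, n = 3) in R409C/+ mice, without overlap. Their log2 fold changes were 0.51 and 0.83, with adjusted p-values of 0.465 and 0.308 in edgeR's QL test. *Igfbp3* went the other way, at 20.7, 20.4, and 23.1 CPM in WT and 18.5, 16.1, and 19.5 CPM in R409C/+ replicates 1, 2, and 3. Its log2 fold change was -0.25 (adjusted p = 0.697, edgeR QL test), and *Igfbp4* overlapped between the genotypes. *Ptpn1*, a phosphatase of the insulin receptor, and *Ptprj*, a receptor-type phosphatase, had log2 fold changes of 0.53 and 0.43, with overlap only for *Ptpn1*, and adjusted p-values of 0.523 and 0.552 from the same edgeR test. *Errfi1*, an inhibitor of the ErbB kinases that ERK signaling induces, was at 24.2 ± 2.33 CPM (SD, n = 3) in WT and 26.1 ± 3.64 CPM (SD, n = 3) in R409C/+ mice, with overlap. *Rnf41*, a ubiquitin ligase that acts on ERBB3, was at 9.46 ± 0.708 and 12.2 ± 2.16 CPM (SD, n = 3 each), also with overlap. *Igfbp7* and *Igf2r*, the latter for the receptor that clears IGF-2, had the highest levels per length of this list, and both overlapped between the genotypes.

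All 16 docking and substrate genes were tested, 5 with a positive and 11 with a negative log2 fold change, with a median of -0.11, and 0 passed the threshold or an unadjusted p under 0.05. Of all genes tested, 8.63% were under this unadjusted p in either direction. *Gab1*, described beside *Erbb3*, was lower in every R409C/+ mouse. *Irs1*, the first docking protein of the insulin receptor, was at 42.8 ± 3.28 CPM (SD, n = 3) in WT and 35.2 ± 3.98 CPM (SD, n = 3) in R409C/+ mice, with overlap. *Ptpn11*, the SHP2 phosphatase gene, had the highest level per length of the list, at 226 ± 36.1 CPM (SD, n = 3) in WT and 205 ± 8.76 CPM (SD, n = 3) in R409C/+ mice, with overlap, and *Crk*, an adaptor, was second, also with overlap.

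The other 48 receptor tyrosine kinase genes of the mouse served for comparison. Of these, 33 were tested, 20 with a positive and 13 with a negative log2 fold change, and 5 were listed at 0 in all mice. The median was 0.12, beside -0.043 for the 10 genes described above, and 0 passed the threshold. 2 genes were higher at an unadjusted p under 0.05, *Csf1r* and *Ret*, and 0 were lower, beside 5.77% and 2.86% of all genes tested. *Csf1r*, the receptor for CSF-1 on macrophages, was measured at 37.4, 40.0, and 35.7 CPM in WT and at 50.9, 55.0, and 57.5 CPM in R409C/+ replicates 1, 2, and 3. The groups were well separated, and the log2 fold change was 0.53 (SE of 0.14, adjusted p = 0.284, edgeR QL test), beside the macrophage marker sums given above; its exons share 1461 bases with *Hmgxb3* on the opposite strand. *Ret*, at 7.98 ± 1.29 CPM (SD, n = 3) in WT and 10.8 ± 1.76 CPM (SD, n = 3) in R409C/+ mice, overlapped. The highest levels per length were those of the endothelial receptors *Kdr* and *Tie1*, which also overlapped.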

How the data were processed

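mRNA-Seq was performed by the authors on LVs of 3 WT and 3 *Lztr1* R409C/+ mice, with 1 library per mouse. The authors deposited whole-number counts per gene, without normalization. Per the labels and the methods, reads were trimmed with Trim Galore, aligned to GRCm39 with HISAT2, and assigned with StringTie after rRNA was excluded. Versions, the annotation release, the use of strand, and the step from StringTie to whole counts are not given in the sources used here. A second deposited table holds the authors' edgeR comparison (log2 fold changes, average log2 CPM, p-values, and adjusted p-values); only its gene names were used. Names of genes outside that table, positions, and exon lengths came from GENCODE vM39 (GRCm39), in which 56236 of 56923 identifiers were found. Where genes share a name (*Nrg1*), the one with the longest exons was used.

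The deposited counts were fitted with edgeR 4.0.16 under R 4.3.3 (filterByExpr, TMM, robust quasi-likelihood (QL) test, two-sided, Benjamini-Hochberg adjustment over 17212 genes, threshold 0.05). Standard errors are the log2 fold change divided by the square root of F, and intervals use the moderated degrees of freedom. For ratios, all splits of 6 mice into 3 and 3 were enumerated (exact permutation test, smallest possible p 0.1). Genes named beside the 10 receptors were those of the pathway lists with an unadjusted p under 0.05 and the 2 with the highest level per length in each list, and the list genes with the pattern most like the 3 receptors of lowest unadjusted p. *Hgf*, *Nrg1*, *Irs1*, *Errfi1*, *Rnf41*, *Igfbp3*, *Igfbp4*, *Flt1*, *Tek*, *Pdgfra*, and *Epha4* were added after their values were seen. The Schwann cell marker *Cnp* was named because its groups did not overlap. The cardiomyocyte markers *Myh6*, *Tnnt2*, *Tnni3*, *Myl2*, and *Myl3* were named after their values were seen. The members, lists, ratios, and tests were chosen with earlier results of these data known. The common biological coefficient of variation was 26.1%. The labels give replicate numbers and no shared litter. The tests set the difference between genotypes against the variation between these mice, which edgeR's QL test moderates across genes. Alternatives used DESeq2 1.42.0 and limma 3.58.1, other scalings and filters, a replicate block, a loess correction for gene length, and the omission of each mouse. The omission of WT replicate 3 and R409C/+ replicate 1 together and the use of canonical transcript lengths were chosen after seeing the data. The steps were tested on simulated data. The promoter window of *Igf1r* alone is printed, and those of the other receptor genes are not reported here.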

Additional observations from a re-analysis of the deposited data

How the results depend on the processing

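None of the 10 receptor genes was called at a false discovery rate of 0.05 under any of the 17 alternatives with a test. The number at an unadjusted p under 0.05 was 1 (*Insr*), where 993 of all 17212 genes were higher and 493 lower. It was 0 with library size only (388 higher and 301 lower over all genes), with upper quartile scaling (1176 and 305), and with the replicate block (903 and 324). It ranged from 0 to 1 with a mouse left out, where 861 to 1014 of all genes were higher and 336 to 531 lower. The 1 was *Insr* without R409C/+ replicate 2, *Erbb4* without WT replicate 2, and *Erbb3* without WT replicate 3. The number was 2 (*Axl* and *Fgfr1*) without WT replicate 3 and R409C/+ replicate 1, where 1025 of 17313 genes were higher and 446 lower. Among all genes, 7 were called at a false discovery rate of 0.05. This number was 21 with library size only, 150 with DESeq2, 140 with edgeR's exact test, and 1 with the replicate block, and it ranged from 2 to 4 with a mouse left out. Without a filter on low counts it was 20. Deviations of same-numbered mice from their group means had correlations of -0.001, 0.022, and -0.057. With 3 mice per group, these values cannot settle whether the replicate numbers pair the mice, because a shared litter or batch need not show in them. In the fit with the replicate block, the log2 fold change of *Insr* was -0.41 (unadjusted p = 0.0633, edgeR QL test) and that of *Erbb3* was -0.40. *Egf*, *Igf1*, and *Igf2* passed the threshold with DESeq2 and edgeR's exact test.

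The log2 fold changes of *Insr*, *Erbb3*, *Erbb4*, and *Met* were negative in all 18 alternatives, between -0.535 and -0.271 for *Insr* and between -0.544 and -0.092 for *Met*. With library size only, which moved the median of all genes to -0.14, the sign turned for *Egfr* (-0.042), *Fgfr1* (-0.054), *Axl* (-0.014), and *Ddr1* (-0.074), and with upper quartile scaling for *Erbb2* (0.002). The gene length correction turned *Igf1r* to 0.051 and *Ddr1* to -0.023. Without WT replicate 3 and R409C/+ replicate 1, *Igf1r* was at 0.16 and *Erbb2* at 0.12. With a mouse left out, the values ranged from -0.061 to 0.29 for *Egfr*, -0.23 to 0.11 for *Erbb2*, -0.19 to 0.056 for *Igf1r*, and -0.097 to 0.24 for *Ddr1*. The cause of these changes was not tested.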

Other observations

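Some receptor genes outside the 10 are given here as values; *Flt1*, *Tek*, *Pdgfra*, and *Epha4* were chosen after their values were seen. *Kdr*, the main VEGF receptor gene of endothelial cells, was measured at 177, 230, and 164 CPM in WT and at 106, 175, and 201 CPM in R409C/+ replicates 1, 2, and 3, and *Flt1*, another VEGF receptor gene, at 109, 117, and 104 CPM and at 76.8, 113, and 118 CPM. R409C/+ replicate 1 was the lowest mouse for both, as it was for *Insr*, *Erbb3*, *Ddr1*, *Erbb2*, *Igf1r*, and *Met*, but not for *Egfr*, *Erbb4*, *Fgfr1*, or *Axl*. This is the library with 45.4% mitochondrially encoded RNA. The share of all tested genes with this mouse lowest was not counted. *Tek*, the angiopoietin receptor gene, was at 54.6 ± 4.57 CPM (SD, n = 3) in WT and 56.4 ± 5.70 CPM (SD, n = 3) in R409C/+ mice, and *Pdgfra*, the fibroblast PDGF receptor gene, at 38.4 ± 4.07 and 41.6 ± 1.44 CPM (SD, n = 3 each). *Epha4*, an ephrin receptor gene, was at 68.8, 66.3, and 69.9 CPM in WT and at 40.9, 57.9, and 64.8 CPM in R409C/+ replicates 1, 2, and 3, without overlap (log2 fold change -0.32, adjusted p = 0.648, edgeR QL test).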
